A study of Homo sapiens with 6 samples.

Results

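Molecular chaperones bind unfolded or partly folded proteins and let them reach their native shape. In the cytosol, HSP70 proteins bind short exposed stretches in cycles of ATP hydrolysis. J-proteins (the DNAJ families) bring clients to HSP70 and start hydrolysis, and HSP110 and several BAG proteins exchange the nucleotide. HSP90 takes over late folding intermediates such as kinases and steroid receptors, small HSPs hold aggregating proteins, and the ring-shaped chaperonin TRiC encloses actin and tubulin. Many of these genes are transcribed by heat shock factor 1 (HSF1), which binds inverted repeats of GAA called heat shock elements.

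The genes described here were the rows of the deposited table whose symbol fits the naming pattern of the HSPA, HSPB, HSPD, HSPE and HSPH genes, HSP90AA1 and HSP90AB1, the DNAJA, DNAJB and DNAJC genes, the TRiC subunits TCP1, CCT2 to CCT5, CCT7 and CCT8, the BAG genes, and HSF1 and HSF2, without the ER stress genes HSPA5, DNAJB9, DNAJB11 and DNAJC3. This gave 74 of 26025 rows, with 73 symbols, because HSPA14 was listed with 2 identifiers. CCT6A and HSPA1B have symbols outside the pattern and are given beside the members they resemble. Not every member is cytosolic: 43 of the 74 were placed in the cytosol, 9 in the mitochondrion, 8 in the ER, 5 in the nucleus and 9 elsewhere, from general knowledge of the proteins. The members are therefore called heat shock and chaperonin genes below.

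The cells were NCI-H1299, a long-established cell line from a human non-small cell lung carcinoma. After starvation, 3 cultures were kept for 48 h in medium with 2% FBS and vehicle (Ctrl), and 3 in the same medium with 10 µM norepinephrine (NE), a catecholamine that acts through adrenergic receptors. The sample labels name the vehicle as DMSO in the titles and as PBS in the treatment text. Nothing says whether the 3 libraries of a group came from separate experiments, so p-values measure the spread between these libraries, and fewer cells of a kind and less RNA per cell cannot be told apart in bulk RNA.

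The table holds read counts per gene scaled by a size factor of each library, called normalized counts here. Between 16852751 and 17979206 reads fell on genes in each library. Ctrl replicate 3 stood apart, with 7305 genes at 0 reads against 3954 to 4833 in the other libraries, and its median distance from the other Ctrl libraries over the tested members was 0.37 on the log2 scale, against 0.07 to 0.20 for every other library within its group. Of the line's markers, KRT8, KRT18 and VIM had between 5232 and 78252 normalized counts in every library, and the immune marker CD68 and the lung epithelium marker FOXJ1 had at most 2.91. All 3 line markers fell in NE-treated cells, KRT8 with a log2 fold change of -1.06, KRT18 with -1.62 and VIM with -0.38, the last of which was not called without Ctrl replicate 3. After the GC correction described below these were -0.59, -1.15 and -0.20, and VIM was not called (adjusted p = 0.374, limma). The fibroblast marker COL1A1 had 19.7 to 27.2 normalized counts in Ctrl and 7.75 to 10.97 in NE libraries, a log2 fold change of -1.26 (adjusted p = 0.0251, limma with Benjamini-Hochberg adjustment) that was not called after GC correction, at -0.68. DCN and LUM, the other fibroblast markers, had at most 18.8, and the endothelial markers PECAM1, VWF and CDH5 at most 36.6 normalized counts. What part changes in the makeup of the cultures had in the results was not tested.

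Between NE and Ctrl libraries, chaperone genes differed in both directions, as did all tested genes. By limma on log2(normalized count + 1), with Benjamini-Hochberg adjustment over all 15013 genes with a mean of at least 10, 22 of the 69 tested members rose (31.9%), against 24.6% of all tested genes, and 14 fell (20.3%), against 25.5%. The median log2 fold change was 0.15 over the tested members and 0.01 over all genes. With a log2 fold change of at least 1 as well, 7 members rose (7.47% of all genes) and 2 fell (6.55% of all genes). The 7 were DNAJC28, DNAJC1, HSPA12A, DNAJC13, HSPA13, DNAJB14 and DNAJC16, and the 2 were HSPB1 and DNAJC17. NE libraries lay wholly above the Ctrl range for 25 tested members (36.2%) and wholly below it for 18 (26.1%), against 29.7% and 28.9% of all tested genes. DNAJA4, DNAJB13, DNAJC12, HSPB6 and HSPB9 had a mean under 10 and were not tested. Adding 1 before the logarithm shrinks fold changes of low genes, but their limma values were not always the smaller ones. For DNAJC28 and HSPA12A, edgeR gave 2.80 and 1.19, against 2.98 and 1.37 by limma.

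**Figure D1:**
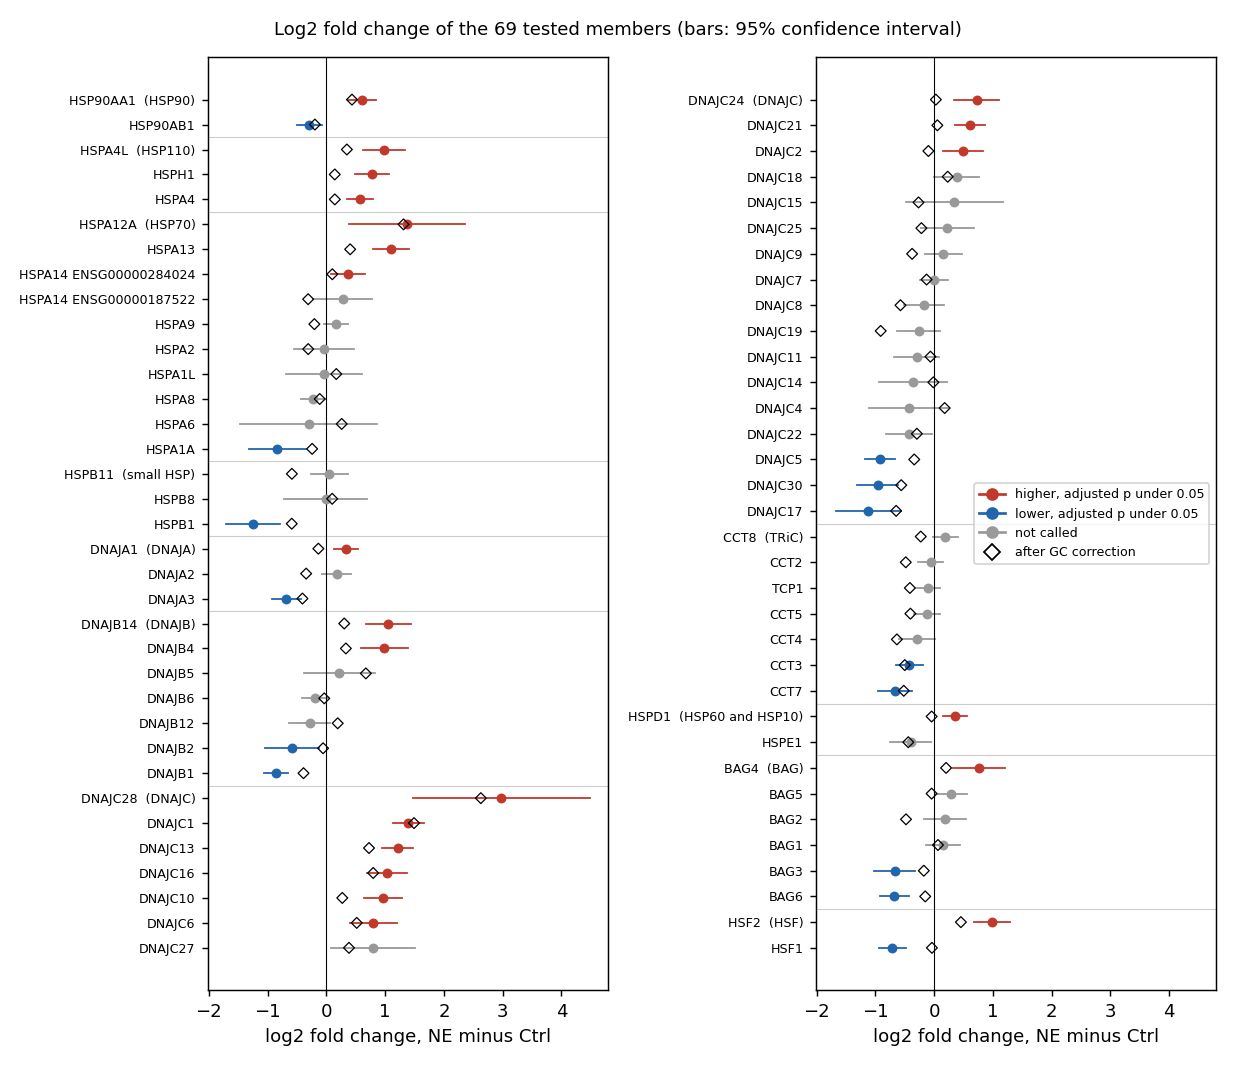
Log2 fold change (NE minus Ctrl, horizontal axis) of the 69 tested members by family, with 95% confidence intervals; red and blue mark members that rose or fell at an adjusted p under 0.05, and open diamonds give the value after GC correction. 22 members rose and 14 fell, and for most of them the diamond lies closer to 0 than the filled point, with DNAJC1 and CCT3 among the exceptions.

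The fold changes followed the base composition of the genes. Across the 69 tested members, Spearman's rho between the log2 fold change and the GC content of the merged exons was -0.73. Across 14955 tested genes it was -0.64, so members and other genes shared the trend, and all points share the same 6 libraries. Exons of the members that rose had a median GC content of 40.7%, and exons of the members that fell 56.2%. Within the Ctrl group, the difference between replicate 3 and replicate 1 followed GC content in the same direction (rho = -0.71 over the 69 members), whereas replicates 2 and 1 differed with a rho of -0.12. Within the NE group the differences ran the other way against replicate 1, with a rho of 0.425 for replicate 2 and of 0.256 for replicate 3, and replicate 3 minus replicate 2 gave -0.197. After a smooth trend on GC content was removed from each library, 13 members rose and 17 fell (14.5% and 17.7% of all genes), and the median of the members was -0.06. Of the 36 members called before this correction, 19 were called in the same direction after it. A further 10 members were called lower only after it, and 1, DNAJB5, higher, at 0.67 (adjusted p = 0.0379, limma). Whether the trend is of technical or biological origin was not tested, and GC-corrected values are given beside the main results below.

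**Figure D2:**
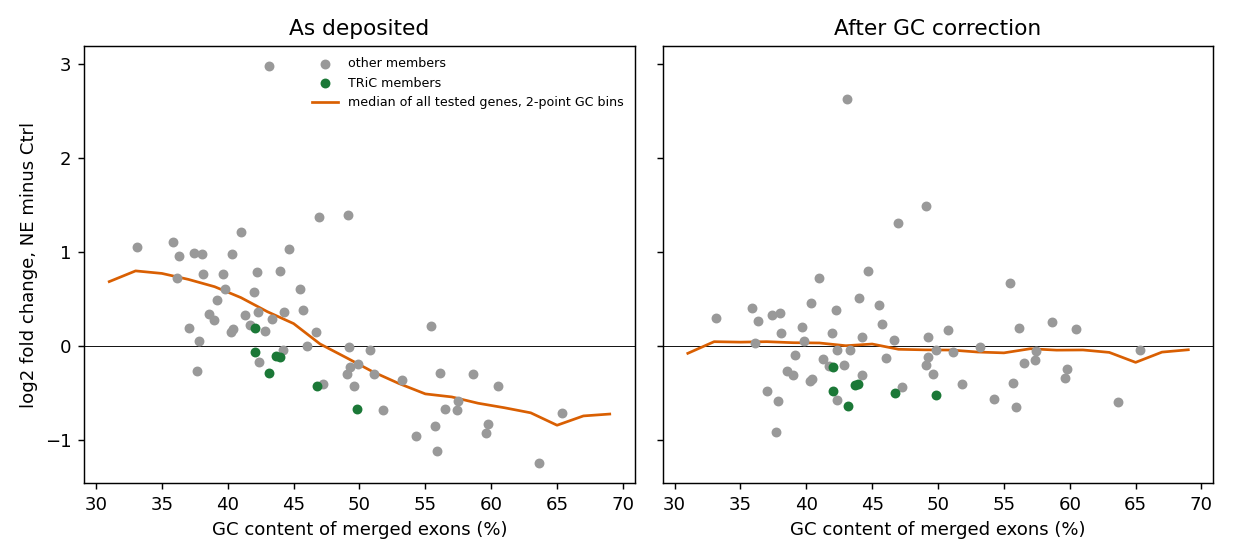
Log2 fold change (vertical axis) of the tested members against the GC content of their merged exons, as deposited (left) and after GC correction (right); the line is the median of all tested genes in bins of GC content. Members in the left panel fall with GC content along the line of all genes (rho = -0.73), and the TRiC members in green lie below the line in both panels.

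Ctrl replicate 3 also lay between the groups for most called members. On the log2 scale it was displaced from the other Ctrl libraries towards the NE mean in 33 of the 36 called members, by a median of 33.7% of the distance. Without this library, 30 members rose and 22 fell (31.8% and 32.6% of all genes), and all 36 calls were still made in the same direction.

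The most abundant members were HSP90AB1, HSPA8 and HSP90AA1. Per exon length, HSP90AB1 stood at 1084 ± 33.2 FPKM (SD, n = 3) in Ctrl cells, HSPA8 at 967 ± 22.2 and HSP90AA1 at 736 ± 54.97. In NE-treated cells HSP90AA1 was first, at 1230 ± 54.2 FPKM, followed by HSP90AB1 at 974 ± 45.0 and HSPA8 at 911 ± 38.4. The last pair differed by less than 2 SD in NE-treated cells. Together the 74 members took 2.06% ± 0.0369 of the reads on genes in Ctrl and 2.29% ± 0.0241 in NE libraries (SD, n = 3). The groups did not overlap, which gives an exact two-sided permutation p of 0.1, the smallest that 3 against 3 libraries allow. HSP90AA1 made up 0.375% ± 0.0280 of the reads in Ctrl and 0.627% ± 0.0276 in NE libraries. HSPA8 took 0.469% in Ctrl and 0.4415% in NE libraries, and HSP90AB1 0.323% and 0.290%. The order of these genes by reads thus differed from that per exon length. Without HSP90AA1, HSP90AB1 and HSPA8, the remaining members took 0.893% ± 0.00700 and 0.928% ± 0.0197.

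The paired cytosolic HSP90 genes moved in opposite directions. HSP90AA1 (ENSG00000080824), which encodes the inducible HSP90 alpha, lies on the minus strand at chr14:102080742-102139699 of hg38, and HSP90AB1 (ENSG00000096384), which encodes the constitutive HSP90 beta, on the plus strand at chr6:44246166-44253888. HSP90AA1 had 64583, 66257 and 71741 normalized counts in Ctrl and 112636, 100780 and 95204 in NE libraries. All NE libraries were above all Ctrl libraries, and HSP90AA1 rose by 0.605 on the log2 scale (standard error 0.108, adjusted p = 0.00179, limma), and by 0.44 after GC correction (adjusted p = 0.0227, limma). HSP90AB1 had 58430, 60846 and 55371 normalized counts in Ctrl and 47101, 48246 and 47258 in NE libraries. Its NE libraries were all below the Ctrl range, and the fall of 0.29 (adjusted p = 0.0282, limma) was no longer called after GC correction, at -0.20 (adjusted p = 0.175, limma), or when Ctrl replicate 1 or 2 or NE replicate 2 or 3 was left out. Within a library, the ratio of HSP90AA1 to HSP90AB1 was 1.16 ± 0.115 in Ctrl and 2.17 ± 0.200 in NE libraries (SD, n = 3, no overlap, exact permutation p = 0.1). The difference between NE and Ctrl in the log2 ratio was 0.90, and 0.63 after GC correction, again without overlap.

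The heat shock element occurs before start sites of both genes. The 250 bases before each annotated start site were searched on both strands in the RefSeq promoters of GRCh38.p14, where 66 of the 73 member symbols were found. The element with 3 units (GAANNTTCNNGAA or TTCNNGAANNTTC) occurred in 6 of these 66 genes (9.09%), against 0.557% of all 27305 genes. They were HSP90AA1, HSP90AB1, HSPA8, HSPA6, HSPD1 and DNAJB6. The pair of units it contains (GAANNTTC or TTCNNGAA) occurred in 20 of the 66 (30.3%), against 14% of all genes. The cAMP response element TGACGTCA, which CREB binds, occurred before start sites of HSP90AB1 and DNAJC27, against 2.03% of all genes. At HSP90AB1 it lies before another start site, upstream of the one that the 3-unit elements precede. The windows below show the 3-unit elements in capitals with up to 8 bases on each side, read on the strand of the gene. They are shown because genes that share the element rose, fell or were not called.
HSP90AA1, chr14:102087112-102087140, minus strand: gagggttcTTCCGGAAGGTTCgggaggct
HSP90AB1, chr6:44247770-44247798, plus strand: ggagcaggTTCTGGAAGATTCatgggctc
HSP90AB1, chr6:44247823-44247851, plus strand: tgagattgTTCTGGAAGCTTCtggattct
HSPA8, chr11:123062171-123062199, minus strand: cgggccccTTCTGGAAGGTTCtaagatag
HSPA8, chr11:123062346-123062374, minus strand: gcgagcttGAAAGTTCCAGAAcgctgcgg
HSPD1, chr2:197500060-197500088, minus strand: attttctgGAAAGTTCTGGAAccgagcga
HSPA6, chr1:161524458-161524486, plus strand: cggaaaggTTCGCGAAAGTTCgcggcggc
DNAJB6, chr7:157336865-157336893, plus strand: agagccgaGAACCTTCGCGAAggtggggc

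In the HSPD1 window a second, overlapping element of the other orientation starts just upstream. Both HSPD1 elements lie before an alternative start site, downstream of the one at 197500274 given below. The 250 bases that hold the HSP90AB1 elements, chr6:44247693-44247942, lie inside the annotated gene and include annotated exon bases. Of these genes, HSP90AA1 and HSPD1 rose, HSP90AB1 fell, and HSPA8, HSPA6 and DNAJB6 were not called, with log2 fold changes of -0.22, -0.30 and -0.19. For HSP90AA1, the whole window of 250 bases before the start site, chr14:102087045-102087294 on the minus strand, is free of annotated exons and has a GC content of 77.6%. Its only 3-unit element, in capitals, begins 88 bases before the start site.
HSP90AA1, 250 bases before the start site: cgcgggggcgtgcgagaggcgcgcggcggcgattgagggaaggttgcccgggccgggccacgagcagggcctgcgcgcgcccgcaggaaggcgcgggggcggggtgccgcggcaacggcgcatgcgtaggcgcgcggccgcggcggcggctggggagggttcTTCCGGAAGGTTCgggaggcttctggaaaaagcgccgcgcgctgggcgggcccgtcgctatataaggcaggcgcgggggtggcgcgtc

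**Figure D3:**
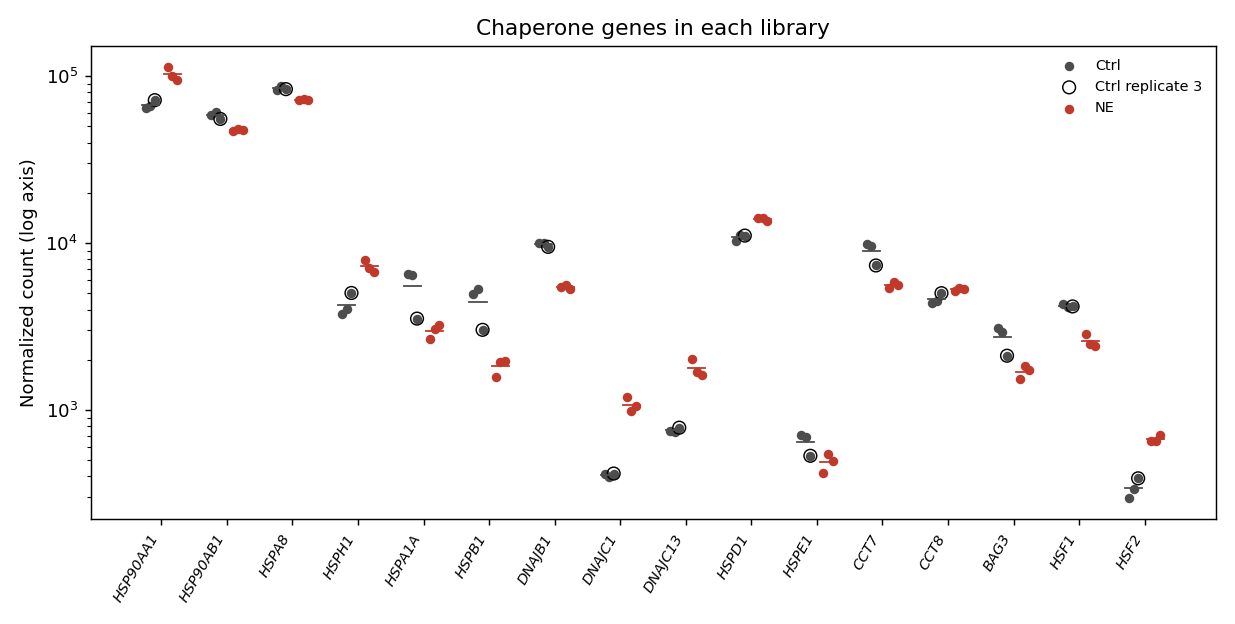
Normalized count (log axis) of 16 members in each library; points are libraries, bars are group means and the circle marks Ctrl replicate 3. HSP90AA1, HSPH1, DNAJC1, DNAJC13, HSPD1 and HSF2 lie higher in NE libraries, HSP90AB1, HSPA1A, HSPB1, DNAJB1, CCT7, BAG3 and HSF1 lie lower, and for HSPA1A, HSPB1, CCT7 and BAG3 the circled library lies between the other Ctrl libraries and the NE libraries.

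Among the HSP70 and HSP110 genes, 6 of 13 rose (46.2%) and 1 fell (7.69%), against 24.6% and 25.5% of all tested genes. The 6 include ENSG00000284024, listed as HSPA14, which carries another name in GENCODE v44. The major constitutive and inducible HSP70 genes were not among those that rose. HSPA8 (ENSG00000109971), the constitutive HSC70, had 83093, 86841 and 83504 normalized counts in Ctrl and 71981, 73208 and 71681 in NE libraries, so the groups did not overlap. Its log2 fold change of -0.22 (95% confidence interval -0.43 to -0.01) missed the threshold in limma (adjusted p = 0.0721). HSPA8 passed it in edgeR (adjusted p = 0.0446), DESeq2 (0.0421) and voom (0.0347), the only 3 of 19 alternatives that called it. With the GC trend removed it stood at -0.11 (adjusted p = 0.469, limma). HSPA1A (ENSG00000204389), the stress-inducible HSP70, had 6520, 6436 and 3528 normalized counts in Ctrl and 2652, 3062 and 3229 in NE libraries. Here Ctrl replicate 3 lay close to the NE libraries, and the fall of 0.83 (standard error 0.218, adjusted p = 0.0114, limma) was not called without NE replicate 1, nor after GC correction, at -0.24. Without Ctrl replicate 3 it fell by 1.12. HSPA1A shares 71% of its windows of the length of a read with its near copy HSPA1B and an unnamed gene, so its reads could not be assigned with certainty. HSPA1B had 2821, 2828 and 2123 normalized counts in Ctrl and 1594, 1562 and 1520 in NE libraries, a log2 fold change of -0.72 (adjusted p = 0.0018, limma), and -0.16 after GC correction.

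All 3 HSP110 genes rose before GC correction. HSPH1 (ENSG00000120694), a nucleotide exchange factor of HSP70, had 3739, 4029 and 5024 normalized counts in Ctrl and 7940, 7104 and 6675 in NE libraries. HSPH1 rose by 0.77 (standard error 0.130, adjusted p = 0.00133, limma), HSPA4 by 0.57 and HSPA4L by 0.98, with no overlap between groups in any of them. After GC correction only HSPA4L was still called, at 0.35 (adjusted p = 0.0383, limma), with HSPH1 and HSPA4 both at 0.14. Within a library, HSPH1 stood at 0.0505 ± 0.00839 of the HSPA8 level in Ctrl and at 0.1002 ± 0.00900 in NE libraries, without overlap. The difference in the log2 ratio was 0.996, and 0.26 after GC correction.

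HSPA13, an HSP70-like ATPase of the microsomes, had 815, 851 and 1084 normalized counts in Ctrl and 2122, 1953 and 1807 in NE libraries. It rose by 1.10 (standard error 0.134, adjusted p = 0.000309, limma), and by 0.41 after GC correction (adjusted p = 0.00586, limma). HSPA12A, a distant relative of HSP70, was low, with 27.2, 51.9 and 12.7 normalized counts in Ctrl and 75.1, 62.0 and 73.1 in NE libraries. Its rise of 1.37 rested on few reads (adjusted p = 0.0273, limma), was 0.88 without Ctrl replicate 3, and was lost when any NE library was left out. After GC correction it was 1.31 (adjusted p = 0.0414, limma). HSPA9, the HSP70 of mitochondria, had a log2 fold change of 0.16 (adjusted p = 0.169, limma) that turned to -0.20 after GC correction. Of the paired HSPA14 rows, ENSG00000284024 rose by 0.37, a call that was lost in 4 of 6 fits without a library and after GC correction, at 0.10 (adjusted p = 0.5, limma). ENSG00000187522 had 0.28 (adjusted p = 0.315, limma). The first of these identifiers carries another name, MSANTD7, in GENCODE v44 and overlaps the second, so their reads could not be separated with certainty.

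Of the small HSPs only HSPB1, HSPB11 and HSPB8 were tested, and only HSPB1 was called as deposited. HSPB1 (ENSG00000106211), or HSP27, which holds unfolding proteins and binds actin filaments, lies at chr7:76302673-76304295. It had 4952, 5335 and 3022 normalized counts in Ctrl and 1569, 1934 and 1974 in NE libraries. It fell by 1.25 (standard error 0.203, adjusted p = 0.00116, limma). It fell by 1.50 without Ctrl replicate 3, and by 0.59 after GC correction (adjusted p = 0.0055, limma). Per exon length it went from 151 ± 40.0 to 68.9 ± 11.00 FPKM (SD, n = 3), from sixth to fourteenth among the members. HSPB8 had 25.5 to 39.4 normalized counts in Ctrl and 24.7 to 37.8 in NE libraries, with a log2 fold change of -0.01. HSPB11, an intraflagellar transport protein, had a log2 fold change of 0.05, and was called lower after GC correction, at -0.59 (adjusted p = 0.0391, limma).

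The J-proteins made up 34 of the tested members, of which 12 rose (35.3%) and 6 fell (17.65%), against 24.6% and 25.5% of all genes. After GC correction 8 J-proteins rose and 7 fell, against 14.5% and 17.7% of all genes. DNAJB1 (ENSG00000132002), the main stress-induced partner of HSP70, had 9985, 9975 and 9488 normalized counts in Ctrl and 5419, 5609 and 5279 in NE libraries. Ctrl replicate 3 lay with the other Ctrl libraries here, and the fall was 0.85 (standard error 0.0890, adjusted p = 0.000172, limma), and 0.39 after GC correction (adjusted p = 0.00818, limma). DNAJA1, another cytosolic partner of HSP70, rose by 0.34 (adjusted p = 0.0115, limma), a call that was lost without Ctrl replicate 1 or NE replicate 2, and turned to -0.14 after GC correction. DNAJA3, the type A J-protein of mitochondria, fell by 0.68, and by 0.41 after GC correction (adjusted p = 0.00764, limma).

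In the DNAJB family, DNAJB14, an ER membrane protein, rose by 1.051 (adjusted p = 0.0011, limma) and DNAJB4, a cytosolic relative of DNAJB1, by 0.99 (adjusted p = 0.00191, limma). After GC correction DNAJB14 stood at 0.30 (adjusted p = 0.018, limma) and DNAJB4 was not called, at 0.33 (adjusted p = 0.0553, limma). DNAJB2, which carries ubiquitin-binding motifs and hands clients to the proteasome, had 1334, 1427 and 799 normalized counts in Ctrl and 713, 787 and 807 in NE libraries. The groups overlapped through Ctrl replicate 3, and the fall of 0.58 (adjusted p = 0.0385, limma) was called in only 1 of 6 fits without a library, that without Ctrl replicate 3. After GC correction it was -0.06 (adjusted p = 0.783, limma).

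The widest range lay in the DNAJC family, in which 9 of 24 tested members rose (37.5%) and 3 fell (12.5%). Of all tested genes, 24.6% rose and 25.5% fell. With the GC trend removed, 6 DNAJC members rose and 4 fell, against 14.5% and 17.7% of all tested genes. Their median log2 fold change went from 0.287 to -0.036. DNAJC1 (ENSG00000136770), an ER membrane J-protein at chr10:21756548-22003769, had 416, 396 and 417 normalized counts in Ctrl and 1190, 985 and 1063 in NE libraries. It rose by 1.39 (standard error 0.117, adjusted p = 7.6e-05, limma) and was 1.49 higher after GC correction, and Ctrl replicate 3 lay with the other Ctrl libraries. DNAJC13 (ENSG00000138246), which acts in the sorting of endosomes, had 754, 743 and 784 normalized counts in Ctrl and 2026, 1679 and 1616 in NE libraries, a rise of 1.21 (standard error 0.118, adjusted p = 0.000127, limma) and of 0.73 after GC correction. DNAJC16, a further ER membrane protein, rose by 1.03, and by 0.80 after GC correction (adjusted p = 0.00122, limma).

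DNAJC28 (ENSG00000177692), a little-studied J-protein assigned to mitochondria, had the largest rise of the members on few reads. It had 10.5, 9.33 and 0.980 normalized counts in Ctrl, 20 reads in all, and 66.2, 38.7 and 42.0 in NE libraries, 153 reads in all. The rise was 2.98 (standard error 0.667, adjusted p = 0.00531, limma), and 2.16 without Ctrl replicate 3, in which the gene had a single read. After GC correction it was 2.63 (adjusted p = 0.0175, limma).

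The DNAJC genes that fell were DNAJC17, DNAJC30 and DNAJC5. DNAJC17, a nuclear protein linked to splicing, had 399, 446 and 226 normalized counts in Ctrl and 159, 178 and 138 in NE libraries. It fell by 1.12 (adjusted p = 0.00499, limma), and by 0.65 after GC correction (adjusted p = 0.0326, limma), and 27.9% of its exon bases overlap other genes. DNAJC30, a mitochondrial protein, fell by 0.96 and by 0.56 after GC correction. DNAJC5, the cysteine string protein of secretory vesicles, fell by 0.92 (adjusted p = 0.000304, limma) and stood at -0.34 after GC correction (adjusted p = 0.0718, limma). DNAJC12 was too low for the test, with 2.09, 7.26 and 6.86 normalized counts in Ctrl and 0, 0.969 and 0.914 in NE libraries.

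Of the 8 members placed in the ER, 5 rose by limma (62.5%) and 0 fell, against 24.6% and 25.5% of all tested genes. The median log2 fold change of the 8 was 0.99, and the same 5 were called higher after GC correction, where the median was 0.29. These were DNAJC1, HSPA13, DNAJB14, DNAJC16 and DNAJC10, a disulfide reductase that rose by 0.96, and by 0.27 after GC correction. DNAJC18, DNAJB12 and DNAJC14 had log2 fold changes of 0.39, -0.29 and -0.36, and without Ctrl replicate 3 the 8 members held 6 that rose and 2 that fell. Of the 40 tested cytosolic members, 13 rose (32.5%) and 9 fell (22.5%), with a median of 0.07. After GC correction 5 of the 40 rose and 10 fell, against 14.5% and 17.7% of all tested genes. Of 9 mitochondrial members, 2 rose and 2 fell, and after GC correction 1 rose and 4 fell. Beside them, of 15 other chaperones of the ER and mitochondria, 6 rose (40%) and 4 fell (26.7%). The 6 were HSP90B1, CANX and the genes left out by name, HSPA5, DNAJB9, DNAJB11 and DNAJC3. Past both thresholds, DNAJB9 rose by 1.25 and DNAJC3 by 1.20, both induced in ER stress, and TRAP1, the HSP90 of mitochondria, fell by 1.01. After GC correction all 3 were still called, at 0.59, 0.65 and -0.51, and the others that rose were not. SDF2L1 fell by 0.62 and was not called after GC correction. HYOU1, PDIA4 and CALR were not called as deposited. HYOU1 and PDIA4 were called higher only after GC correction, at 0.56 and 0.51.

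The chaperonin TRiC is built of 8 different subunits per ring, of which 7 were members. Of these, CCT7 and CCT3 fell, in limma and in edgeR. CCT7 (ENSG00000135624) had 9850, 9664 and 7342 normalized counts in Ctrl and 5385, 5809 and 5610 in NE libraries, with Ctrl replicate 3 between the groups, and fell by 0.66 (standard error 0.126, adjusted p = 0.0024, limma). CCT3 had 11883, 11804 and 10064 in Ctrl and 8393, 8552 and 8164 in NE libraries, and fell by 0.42 (adjusted p = 0.00714, limma), a call that quantile normalization lost, at -0.08.

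The remaining TRiC subunits were not called. CCT4 had a log2 fold change of -0.29, CCT5 of -0.11, TCP1 of -0.10 and CCT2 of -0.06, and these signs turned under quantile normalization, and for CCT5, TCP1 and CCT2 also with recomputed FPKM. CCT8 had 0.20 (95% confidence interval -0.02 to 0.41), which turned to -0.23 after GC correction. CCT6A, the eighth subunit, had 0.20 (adjusted p = 0.104, limma). After GC correction 6 of the 7 subunits were called lower, against 17.7% of all tested genes. The 6 values lay between -0.40 and -0.63, and CCT8 was not called (adjusted p = 0.0513, limma). CCT6A then stood at -0.30 (adjusted p = 0.0245, limma).

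**Figure D4:**
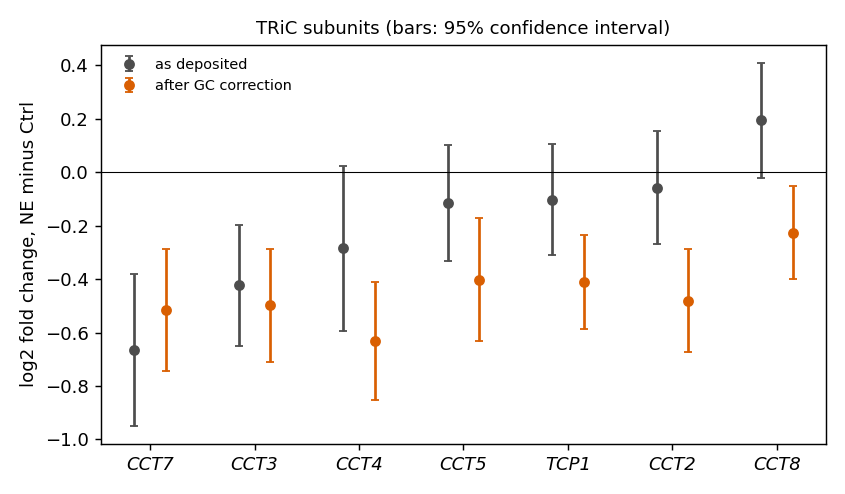
Log2 fold change (NE minus Ctrl, vertical axis) of the 7 TRiC members with 95% confidence intervals, as deposited (grey) and after GC correction (orange). As deposited the values run from -0.66 for CCT7 to 0.20 for CCT8, and after correction from -0.63 to -0.23.

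As deposited, the proportions of CCT7 and CCT8 differed between the groups. Within a library, the ratio of CCT7 to CCT8 was 2.25, 2.15 and 1.47 in Ctrl and 1.04, 1.08 and 1.06 in NE libraries. The groups did not overlap (exact permutation p = 0.1), and Ctrl replicate 3 was the lowest of the Ctrl libraries. CCT7 made up 15.1% ± 2.42 of the normalized counts of the 7 subunits in Ctrl and 11.1% ± 0.376 in NE libraries, and CCT8 7.78% ± 0.522 and 10.4% ± 0.250 (SD, n = 3). The exons of CCT7 have a GC content of 49.8% and those of CCT8 of 42.05%. The log2 ratio of CCT7 to CCT8 differed between NE and Ctrl by -0.86 as deposited and by -0.29 after GC correction, and the groups did not overlap on either scale.

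HSPD1 and HSPE1, which encode the HSP60 and HSP10 of the mitochondrial chaperonin, are transcribed head to head on chromosome 2. Their nearest RefSeq start sites, at 197500274 for HSPD1 and 197500379 for HSPE1, leave 104 bases between them. An E-box, CACGTG, which CLOCK and other bHLH factors can bind, lies in this interval and was found before start sites of 7.73% of all genes and of 7 of the 66 member genes. On the plus strand, chr2:197500345-197500374, with the E-box in capitals, it reads as follows.
HSPE1 and HSPD1: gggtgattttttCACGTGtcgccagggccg

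HSPD1 (ENSG00000144381) had 10255, 11221 and 11083 normalized counts in Ctrl and 14123, 14130 and 13564 in NE libraries, a rise of 0.36 (standard error 0.0910, adjusted p = 0.00918, limma). The call was lost without Ctrl replicate 1 or NE replicate 2, and the value turned to -0.04 after GC correction. HSPE1 (ENSG00000115541) had 711, 685 and 532 in Ctrl and 419, 546 and 493 in NE libraries. The groups overlapped, and its log2 fold change was -0.40 (adjusted p = 0.0574, limma) and -0.44 after GC correction (adjusted p = 0.0385, limma). The ratio of HSPD1 to HSPE1 was 17.2 ± 3.28 in Ctrl and 29.0 ± 4.13 in NE libraries, without overlap (exact permutation p = 0.1). The difference in the log2 ratio was 0.76, and 0.40 after GC correction. Of the exon bases of HSPE1, 17.9% overlap the readthrough gene HSPE1-MOB4 or HSPD1, so some reads could belong to either.

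**Figure D5:**
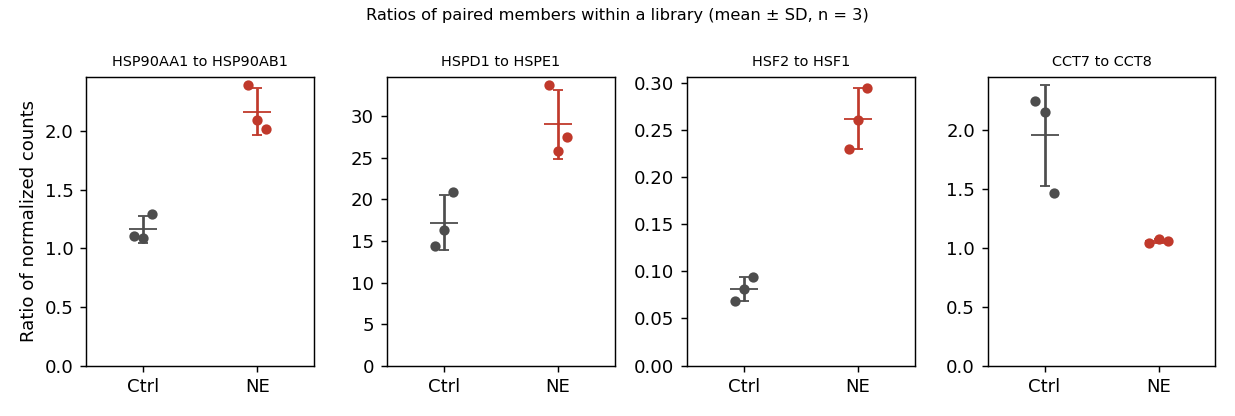
Ratio of normalized counts of paired members within each library (vertical axes start at 0), with points for libraries and bars for mean ± SD (n = 3). The ratio was higher in NE libraries for HSP90AA1 to HSP90AB1, HSPD1 to HSPE1 and HSF2 to HSF1, and lower for CCT7 to CCT8, with no overlap in any panel, and after GC correction the groups overlapped for HSF2 to HSF1.

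Among the BAG genes, several of which encode nucleotide exchange factors of HSP70, BAG6 and BAG3 fell and BAG4 rose. BAG3, which routes clients to autophagy, had 3102, 2946 and 2115 normalized counts in Ctrl and 1524, 1830 and 1727 in NE libraries. It fell by 0.67 (standard error 0.154, adjusted p = 0.00617, limma), with Ctrl replicate 3 between the groups. BAG6, which guides tail-anchored proteins, had 7911, 7761 and 6617 in Ctrl and 5028, 4556 and 4371 in NE libraries, and also fell by 0.67 (adjusted p = 0.0011, limma). BAG4, which binds TNF receptor 1, rose by 0.77 (adjusted p = 0.0111, limma). After GC correction BAG3 stood at -0.17, BAG6 at -0.15 and BAG4 at 0.21, with adjusted p of 0.206, 0.232 and 0.300 (limma), and BAG4 was also not called without NE replicate 1.

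The heat shock factors moved apart as deposited. HSF1 (ENSG00000185122) had 4345, 4120 and 4173 normalized counts in Ctrl and 2843, 2500 and 2411 in NE libraries. The groups did not overlap and Ctrl replicate 3 lay with the other Ctrl libraries, and HSF1 fell by 0.71 (standard error 0.101, adjusted p = 0.000629, limma). Its exons have a GC content of 65.4%, the highest of the members, and after GC correction the value was -0.04 (95% confidence interval -0.33 to 0.26). HSF2 (ENSG00000025156), which can form trimers with HSF1, had 299, 335 and 390 normalized counts in Ctrl and 654, 650 and 710 in NE libraries. It rose by 0.98 (standard error 0.135, adjusted p = 0.00053, limma), and by 0.46 after GC correction (adjusted p = 0.0114, limma). The ratio of HSF2 to HSF1 was 0.0812 ± 0.0124 in Ctrl and 0.262 ± 0.0323 in NE libraries. The difference in the log2 ratio was 1.69 as deposited, without overlap, and 0.49 after GC correction, where the groups overlapped.

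Genes that work with the members were counted in the same way. Over all tested genes 25.5% fell and 24.6% rose, and after GC correction 17.7% and 14.5%. Of 10 other tested genes known to respond to HSF1, HSPA1B among them, 8 fell (80%) and 1 rose (10%). The median log2 fold change of the 10 was -0.66, and after GC correction 6 fell and 2 rose. IER5, an immediate early gene that acts on HSF1, had 802, 734 and 681 normalized counts in Ctrl and 240, 312 and 343 in NE libraries, and fell by 1.32 (adjusted p = 0.000282, limma), and by 1.17 after GC correction. SERPINH1, the collagen chaperone HSP47, fell by 1.04, and CRYBG3 rose by 1.39, and after GC correction both were called, at -0.54 and 0.845. Of 19 co-chaperones of HSP90 and HSP70, 8 fell (42.1%) and 3 rose (15.8%), with a median of -0.58. After GC correction 6 fell and 0 rose, by limma, and 0 were higher at an unadjusted p under 0.05. ST13, which links HSP70 to HSP90, rose by 0.35 as deposited and was called lower after GC correction, at -0.24 (adjusted p = 0.0479, limma). CHORDC1 and SUGT1, the others that rose, were then at 0.04 and 0.19 and not called. STUB1, the ubiquitin ligase CHIP, fell by 1.09, and by 0.41 after GC correction. A further 15 rows held prefoldin subunits, tubulin cofactors, other partners of TRiC and its subunit CCT6A. Of these rows, 4 fell and 1 rose. With the GC trend removed 5 fell, CCT6A among them, and 0 rose, by limma, with 0 higher at an unadjusted p under 0.05.

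In 12 members the call kept its direction in every alternative in which the gene could be fitted. HSP90AA1, HSPA13, DNAJC1, DNAJC13, DNAJC16, DNAJC28 and HSF2 rose in all of them, and HSPB1, DNAJB1, DNAJA3, DNAJC30 and CCT7 fell in all of them.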

How the data were processed

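RNA of 3 Ctrl and 3 NE-treated NCI-H1299 cultures was sequenced with NEBNext Ultra libraries and paired reads, whose strandedness is not given in the sources used here. Per the labels, the authors aligned reads to hg38 with HISAT2 2.0.5 and counted them with featureCounts 1.5.0-p3. FPKM is named in their methods. The deposited signal, though, is counts per gene divided by a size factor for each library: 100.0% of values per library were whole multiples of 1 read, within 0.01 reads. Columns were matched to samples by group letter and replicate number. 0 columns were left out.

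The members, gene lists and tests were chosen with earlier results of these data known. Named members were the TRiC subunits, a fixed set of main chaperone genes, members past both thresholds and the 3 largest rises and falls called in each family. limma 3.58.1 (lmFit, eBayes with trend, R 4.3.3) was run on log2(value + 1) over genes with a mean of at least 10. FPKM was recomputed from recovered reads and merged exons of GENCODE v44, which gave GC content for 25813 of 26025 genes. GC correction subtracted from each library a natural spline on GC content (5 degrees of freedom). edgeR 4.0.16, DESeq2 1.42.0 and voom were run on recovered reads. Further alternatives were other pseudocounts and filters, quantile normalization, eBayes without trend, a replicate block and each library left out. Start-site sequences came from RefSeq (GRCh38.p14). Tests were checked on simulated data. Reads have no molecular identifiers, so their number gives a lower limit on the error.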

Additional observations from a re-analysis of the deposited data

How the results depend on the processing

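With a GC trend removed, members that rose went from 22 to 13, and to 8 with length corrected too. Those with a log2 fold change of at least 1 went from 7 to 3 and 2, those at or below -1 from 2 to 0 in both (limma, 0 also at an unadjusted p under 0.05), and the median from 0.15 to -0.061 and -0.098. Recomputed FPKM gave a median of 0.19 and 1 member at or below -1, and raised the median of all genes to 0.12.

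Leaving out 1 library at a time gave 17 to 30 members that rose, 12 to 22 that fell, 5 to 11 and 1 to 4 past both thresholds, and medians from 0.015 to 0.167; the upper counts and the lowest median came without Ctrl replicate 3, and the single member at or below -1 without Ctrl replicate 2.

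Among the named members, signs turned for CCT2 (0.26 quantile, 0.079 FPKM), CCT4 (0.012 quantile), CCT5 (0.10 quantile, 0.022 FPKM) and TCP1 (0.26 quantile, 0.034 FPKM). With GC and with GC and length correction they turned for CCT8 (-0.23 and -0.11), DNAJA1 (-0.14 and -0.003), HSPA9 (-0.20 and -0.29) and HSPD1 (-0.041 and -0.098). GC correction turned the sign of 15 further tested members, BAG2, DNAJA2 and HSPB11 among them, which were then called lower. The cause was not tested.

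Same-numbered libraries did not deviate together (correlations -0.16, 0.08 and -0.15). With 3 libraries per group this cannot settle whether the numbers pair the samples. A replicate block gave 21 members that rose and 13 that fell, with 7 and 2 past both thresholds, a median of 0.15 and 1 changed call among the named members, DNAJB2 (adjusted p = 0.0598, limma). HSPA12A and DNAJC28 rest on 89 and 20 reads in Ctrl.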
